A study of Mus musculus with 468 samples.

Results

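The genes described here encode the proteins of the mitochondrial ribosome. They were chosen by symbol, as the genes whose name begins with Mrpl or Mrps followed by a digit, and the symbol of 1 pseudogene was left out. The rule found 78 genes among 23180, of which 49 carry a large subunit symbol (Mrpl) and 29 a small subunit symbol (Mrps). All 78 passed the filter on low counts, as did 18380 genes in the whole table.

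The samples are adipose tissue of Diversity Outbred (DO) animals, which descend from 8 inbred founder strains, and each mouse gave 1 RNA-seq library. All animals had the high-fat, high-sugar (HFHS) diet and all libraries form 1 group, since the labels give no sex, age, generation or batch. The depot is not named in the labels, and no animals on another diet were analysed here. Each SD below is therefore a spread over mice that also holds the error of the assay, and each p-value measures an association over mice and not the effect of a treatment.

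The mitochondrial ribosome translates the few messenger RNAs that are transcribed from mitochondrial DNA, all of them for subunits of the respiratory chain and of ATP synthase. Its ribosomal RNAs also come from mitochondrial DNA, whereas its proteins are encoded in the nucleus, made in the cytosol and imported. Brown and beige adipocytes, which carry the uncoupling protein Ucp1, are rich in mitochondria, and white adipocytes hold far fewer.

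Per library the expected counts summed to a median of 82 M (1 M is 1000000), with 35.3 M in the shallowest and 137.8 M in the deepest. The paper pooled both reads of each pair and aligned them singly, so both reads of a fragment can be counted. The adipocyte markers were present in every library, with a summed level of 8320 to 30400 CPM (counts per 1000000 counts, scaled by TMM factors). Transcripts of other tissues varied widely between libraries, from 2.72 to 5610 CPM for a skeletal muscle list and from 0.491 to 5970 CPM for a liver list. Counts from 4 genes of the Y chromosome were present in 51.5% of libraries and absent from 48.5%, and relations were also computed within each of these sets. The paper's numbers of male and female adipose samples equal those with and without Y counts, so the split is taken to be by sex. The main fits hold no term for sex, whereas the paper used sex, generation and wave as covariates. Relations over all libraries thus include any difference between the sets. The mean log2 CPM of the 78 genes had a median of 4.27 with Y counts and 4.59 without. The sets also ran mostly in blocks of consecutive mouse numbers.

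The mitochondrial ribosomal protein genes were, per length, mostly expressed above the median gene. Their summed level had a median of 1830 CPM over libraries and ran from 1340 to 3910 CPM. Mean levels of single members lay between 3.52 and 58.3 CPM (median 23.8), and no member had fewer than 35 counts in any library. Per kilobase of exon the median member was at 10.4 CPM per kb, against 2.78 CPM per kb over all genes tested. The median was 10.6 CPM per kb for the large subunit and 8.41 CPM per kb for the small subunit, and the ranges overlapped.

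Per length, Mrps21, a protein of the small subunit platform, stood highest at 46.5 ± 9.52 CPM per kb (SD over all libraries, as for every level below). Mrps6, a small subunit homologue of bacterial S6, was second at 38 ± 9.34 CPM per kb. Mrpl10 and Mrpl12, which together form the stalk where translation factors dock, followed at 30.4 ± 8.03 and 28.3 ± 10.5 CPM per kb. Mrpl34, a short protein of the large subunit, was at 28.2 ± 13.5 CPM per kb. These neighbours in the order differed by less than 1 SD over mice. All levels come from the same libraries, so that spread, here and at the low end, does not test the order.

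The low end of the order held Mrps10 (2.95 ± 0.571 CPM per kb), Mrpl32 (2.93 ± 0.495 CPM per kb), Mrpl47 (2.98 ± 1.37 CPM per kb) and Mrps35 (2.56 ± 0.973 CPM per kb), whose levels were within 1 SD of each other. Mrpl23, a large subunit protein at the mouth of the exit tunnel, was alone below them at 0.720 ± 0.709 CPM per kb. Exon length bears on these values, since it is the union of all annotated exons and spans 0.607 to 8.63 kb among the members. A long union lowers the level per kilobase of a gene that mostly uses a short transcript.

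**Figure D1:**
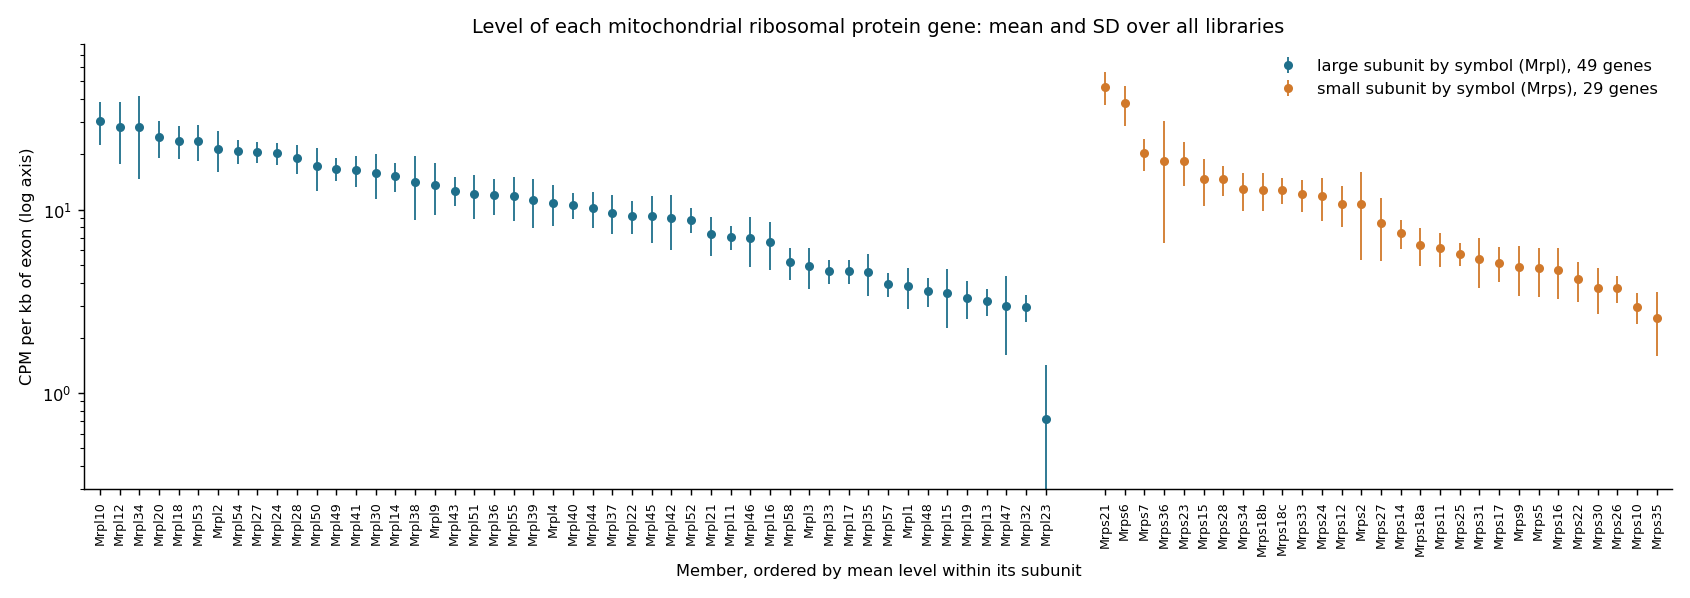
Mean level of the 78 members in CPM per kb of exon on a log axis, ordered within each subunit, with bars of 1 SD over all libraries (the lower bar of Mrpl23 runs off the axis). The ranges of the subunits overlap, and Mrpl23 at 0.720 CPM per kb stands below the others.

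The members varied less between mice than the median gene, and about as much as genes of like level. The SD of log2 CPM over libraries had a median of 0.318 among members, against 0.457 over all genes tested and 0.293 over the 8280 genes with a mean of 5 to 60 CPM. Mrpl27 (0.187), Mrps25 (0.192) and Mrpl24 (0.194) were the steadiest. Mrpl24 ran from 32.3 CPM over a median of 45.0 to 67.5 CPM, a 2.09-fold range over all mice.

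Mrps36, Mrps2, Mrpl47 and Mrpl34 varied most after Mrpl23. Mrps36, whose protein belongs to the 2-oxoglutarate dehydrogenase complex of the citric acid cycle despite its ribosomal name, ran from 8.23 CPM over a median of 18.3 to 114.4 CPM, with an SD of 0.697 on the log2 scale. Mrps2, a small subunit homologue of bacterial S2, ran from 16.1 over 24.6 to 125.9 CPM (SD 0.576 on the log2 scale). Mrpl47, a homologue of bacterial L29, ran from 5.47 over 11.3 to 42.5 CPM (SD 0.557). For each of these genes the median lay close to the low end and a tail of libraries reached several times higher.

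The members rose and fell together over mice. Pearson's r of log2 CPM had a median of 0.722 over the 3003 pairs of members, with percentiles 5 and 95 of the pairs at 0.219 and 0.869. Over all 168903010 pairs of genes tested the median was -0.001, and over the 2850 pairs of the cytosolic ribosome list it was 0.331. Pairs of nuclear genes for oxidative phosphorylation were closer still, with a median of 0.952 over 1128 pairs. The 1st principal component of the members held 69.3% of their variance and the 2nd 5.10%. These correlations describe libraries that share depth and scaling, and with total counts in place of TMM scaling the median over pairs of members was 0.444. Within the libraries with Y counts the median was 0.408 and within those without it was 0.719.

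Pairs within a subunit and across subunits were alike. The median r was 0.734 for large with large, 0.704 for small with small and 0.720 for large with small members. The closest pairs were Mrps5 with Mrps35 (r = 0.949) and Mrps2 with Mrps35 (r = 0.932), all of the small subunit, but Mrpl9 with Mrps35, across the subunits, followed at 0.926. The mean log2 CPM of the Mrpl genes and that of the Mrps genes correlated with r = 0.986 and rho = 0.978 over all libraries. The difference between them, large minus small, had a median of -0.04 and ran from -0.19 to 0.13 (SD 0.0548), while each mean spanned more than 1 log2 unit. Over members with a mean of at least 10 CPM alone the median was 0.115, so its sign rests on which members are averaged.

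The difference was not flat along the common level. It correlated with the mean of all members with r = -0.512, so the Mrps mean rose somewhat more steeply than the Mrpl mean. Part of this depends on which gene counts for which subunit. Mrps18a and Mrps30 carry small subunit names but their proteins sit in the large subunit, and Mrps36 is no ribosomal protein. With the genes placed by structure, 51 large and 26 small, the correlation was -0.332 and the difference had a median of -0.03 (SD 0.0469).

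Bacterial S18 has 3 paralogues in the mitochondrial ribosome, and all followed the other members. Mrps18c, which takes the place of S18 in the small subunit, had r = 0.834 with the mean z-score of the other members, Mrps18b, also in the small subunit, 0.873, and Mrps18a, in the large subunit, 0.764. Mrps30 had 0.841. Mrps12, the homologue of the decoding protein S12, had 0.728.

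For 59 of the 78 members, r with the mean z-score of the other 77 was above 0.8 (median 0.867). Mrpl12 followed the others most closely at 0.957, then Mrpl2, a core protein near the peptidyl transferase centre, at 0.946, and Mrpl51 at 0.933. Mrpl12 ran from 19.5 CPM over a median of 38.6 to 118.8 CPM. Its libraries of highest level were also those in which most other members were high.

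Below 0.5 stood 5 members: Mrpl23 (0.0560), Mrps6 (0.182), Mrpl52 (0.364), Mrpl40 (0.425) and Mrpl54 (0.456). Mrpl52, Mrpl40 and Mrpl54 are proteins that the mitochondrial large subunit gained and that bacteria lack. All 3 also varied little: Mrpl52 ran from 5.86 over 9.60 to 17.4 CPM, Mrpl40 from 11.1 over 18.4 to 28.7 CPM and Mrpl54 from 9.89 over 16.9 to 29.1 CPM. Mrps6 was not steadier than the rest, with an SD of 0.364 on the log2 scale and a range from 26.4 over 57.7 to 111.3 CPM.

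**Figure D2:**
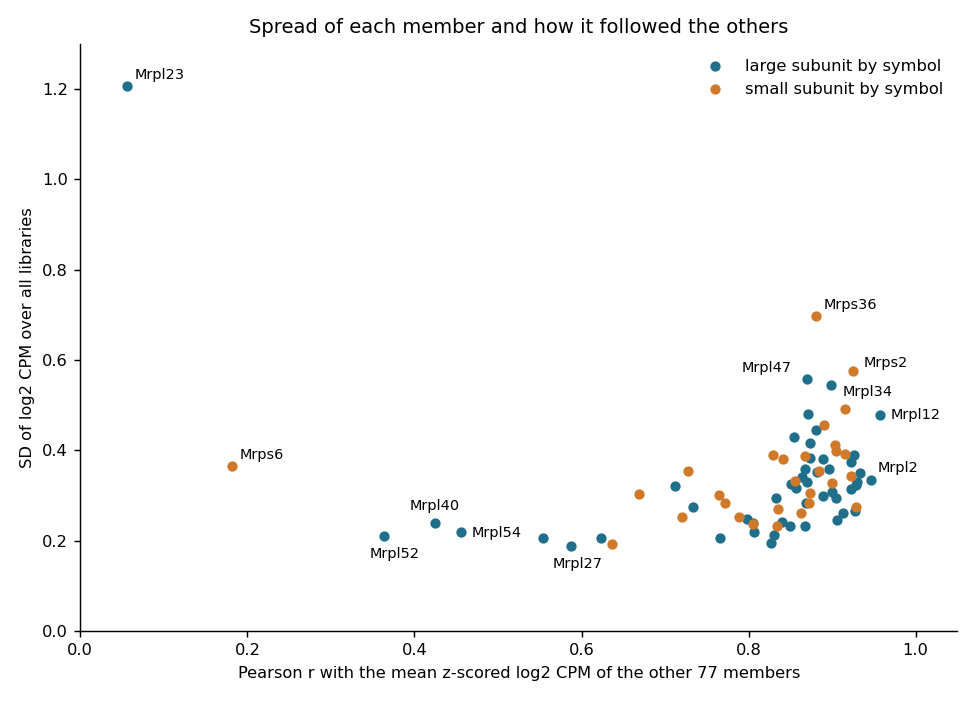
SD of log2 CPM over all libraries against Pearson's r with the mean z-scored log2 CPM of the other 77 members, 1 point per member. Most points crowd at r above 0.8, while Mrpl23 (r 0.0560, SD 1.207) and Mrps6 (r 0.182, SD 0.364) lie far to the left.

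Mrpl23 (chromosome 7, 142532686 to 142540747, GRCm38) fell into 3 separate ranges of level. Of the libraries, 61.5% lay between 0.469 and 3.29 CPM, 33.1% between 3.79 and 8.55 CPM and 5.34%, or 25, between 10.9 and 19.9 CPM. A processed pseudogene, Mrpl23-ps1 (chromosome 2, 74591330 to 74591909), had a median of 11.1 CPM and ran from 0.00204 to 18.6 CPM. Reads that fit both copies are divided between them by the authors' expectation maximization, so the split between gene and pseudogene is uncertain. The counts of both together were far steadier than either: the SD of log2 CPM was 1.207 for Mrpl23, 1.047 for Mrpl23-ps1 and 0.208 for their sum, which ran from 8.69 over 14.1 to 22.8 CPM.

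The sum also followed the other members, with r = 0.665 against their mean z-score, and mt-Co1 with r = 0.516. Within the lowest range of Mrpl23 the gene itself had r = 0.0165 with the members and its pseudogene r = 0.693. Within the middle range these were 0.457 and 0.666, and within the 25 highest libraries 0.675 and 0.198. The pseudogene is no member by the rule and was named after its values were seen.

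Mrps6 (chromosome 16, 92058270 to 92112227) shares exon sequence with Slc5a3, a myo-inositol transporter gene on the same strand (92058322 to 92087473). Of its 1533 exon bases, 10.4% lie in exons of Slc5a3, which was expressed at 135.1 ± 55.6 CPM. Mrps6 and Slc5a3 correlated with r = 0.651, far above the 0.182 between Mrps6 and the other members, and Slc5a3 itself had r = 0.397 with the members. How reads from the shared exon were divided was not tested. In all, 33 members have an exon that overlaps an exon of another gene, 8 on the same strand and 28 on the opposite strand, and whether the counting used strand is not stated. The 45 members with no such overlap had a median r of 0.797 with mt-Co1, 0.677 with Ucp1 and -0.536 with Adgre1, close to the medians of all members below.

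Many members lie head to head with another gene. A protein-coding gene on the opposite strand begins within 1000 bp of the start of 33 members (42.3%), against 14.5% of the 15211 protein-coding genes tested. Over the 32 pairs whose partner was tested, member and partner had a median r of 0.256. In 3 pairs r was above 0.85, and each partner is itself mitochondrial: Mrpl47 with Ndufb5 of complex I (0.892), Mrps27 with Ptcd2, an RNA-binding protein of mitochondria (0.881), and Mrpl36 with Ndufs6 of complex I (0.878). Mrpl46 and Mrps11 face each other and had r = 0.715. At the other end Mrpl13 and Mtbp, 340 bp apart, had r = -0.428 and Mrpl10 and Lrrc46 r = -0.291. These pairs were named after their values were seen.

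The sequence before the start was read for the 69 members that matched an entry of the RefSeq promoter table (GRCm38.p6, 250 bases before to 50 after the start). Mrpl13, Mrpl15, Mrpl19, Mrpl38, Mrpl4, Mrpl54, Mrps28, Mrps34 and Mrps35 did not match. The background is the 12790 tested genes with an entry. The letters CCGGAAG, the core read by ETS factors such as GABPA, occurred on either strand in 24 members (34.8%) and 16.1% of all promoters. AAGATGGC, the core of YY1, was found in 12 members (17.4%) and 4.07% of all promoters, and GCGCATGC, the core of NRF1, in 8 members (11.6%) and 4.79%.

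The other motifs searched lay closer to their background. The CCAAT box (CCAAT) occurred in 39.1% of members and 38.2% of all promoters, the E-box (CACGTG) in 7.25% and 9.55%, and the GC box (GGGCGG) in 49.3% and 60%. TATAAA was found in 5.80% and 7.99%, and the site AAGGTCA of ERR factors in 5.80% and 3.28%. At least 1 of the ETS, YY1 and NRF1 cores was present in 36 members (52.2%) and in 22.9% of all promoters. Members with such a core had a median r with mt-Co1 of 0.777 (0.150 to 0.908), and the 33 without had 0.811 (0.0122 to 0.931). A match of letters describes the sequence and does not show that a factor binds.

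The promoters of 4 members are printed to show members with and without these letters, among them 1 that followed the others and 1 that did not. Capitals mark ETS, YY1 and NRF1 cores and CCAAT boxes, on either strand. Mrpl32 (chr13:14612988-14613287, minus strand) holds overlapping NRF1 cores, a YY1 core and a CCAAT box. Mrps12 (chr7:28741772-28742071, minus strand) holds a row of CCAAT boxes with a YY1 and an ETS core, and starts beside Sars2, the mitochondrial seryl-tRNA synthetase. Mrpl2 (chr17:46645979-46646278, plus strand) followed the other members closely and holds, of these letters, CCAAT boxes alone. Mrps6 (chr16:92058086-92058385, plus strand), which did not follow them, holds none of these letters.
Mrpl32: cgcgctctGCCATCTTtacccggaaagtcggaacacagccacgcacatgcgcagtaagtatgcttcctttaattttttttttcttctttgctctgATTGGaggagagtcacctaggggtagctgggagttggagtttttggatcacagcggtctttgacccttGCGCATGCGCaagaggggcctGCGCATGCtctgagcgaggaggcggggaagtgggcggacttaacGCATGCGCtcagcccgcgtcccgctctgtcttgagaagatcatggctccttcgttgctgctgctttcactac
Mrps12: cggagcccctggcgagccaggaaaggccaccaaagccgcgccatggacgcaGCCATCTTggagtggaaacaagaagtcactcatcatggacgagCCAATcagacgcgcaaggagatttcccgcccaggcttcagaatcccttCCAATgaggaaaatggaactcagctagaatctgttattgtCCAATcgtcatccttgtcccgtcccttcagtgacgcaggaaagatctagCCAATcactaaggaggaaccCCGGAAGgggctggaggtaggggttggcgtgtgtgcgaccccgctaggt
Mrpl2: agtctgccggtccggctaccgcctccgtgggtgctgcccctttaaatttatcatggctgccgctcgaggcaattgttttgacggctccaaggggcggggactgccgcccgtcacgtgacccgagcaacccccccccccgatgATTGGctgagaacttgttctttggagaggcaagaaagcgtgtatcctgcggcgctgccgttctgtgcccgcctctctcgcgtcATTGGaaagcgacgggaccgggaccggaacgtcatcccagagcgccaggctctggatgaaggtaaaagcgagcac
Mrps6: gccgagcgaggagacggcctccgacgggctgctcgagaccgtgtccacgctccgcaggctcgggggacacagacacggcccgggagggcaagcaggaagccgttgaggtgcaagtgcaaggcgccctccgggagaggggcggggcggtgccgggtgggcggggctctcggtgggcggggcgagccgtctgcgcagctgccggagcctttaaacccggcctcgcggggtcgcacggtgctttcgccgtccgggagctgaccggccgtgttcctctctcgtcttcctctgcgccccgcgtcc

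The relation to mitochondrial RNA was read from mt-Co1, the cytochrome oxidase subunit that the mitochondrial ribosome itself translates. It ran from 9050 over a median of 19900 to 101000 CPM (SD 0.75 on the log2 scale). The other 12 protein-coding RNAs of mitochondrial DNA had a median r of 0.932 with mt-Co1. Lowest among them were mt-Co2 (0.244) and mt-Nd4l (0.382), so mt-Co1 does not stand for each of them. Their r with the members' mean z-score was 0.238 for mt-Co2 and 0.341 for mt-Nd4l. In the edgeR quasi-likelihood test over all genes, 76 of 78 members rose with mt-Co1 and 0 fell, where 37.1% of all genes tested rose and 45% fell. The slope, the change in log2 CPM per SD of mt-Co1, had a median of 0.237 over members and -0.0166 over all genes. Mrpl23 and Mrps6 were not called (adjusted p = 0.386 and 0.195).

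Mrps36 had the steepest slope, 0.61 ± 0.0149 (SE, adjusted p = 2.05e-155), then Mrps2 with 0.54 ± 0.0092 (adjusted p = 4.37e-216) and Mrpl47 with 0.49 ± 0.0117 (adjusted p = 7.3e-158). By Pearson's r Mrps2 was the member closest to mt-Co1, with r = 0.931 and rho = 0.891 (two-sided permutation test, p = 1e-05 for each, the smallest that 100000 resamples can give). In all, 75 relations of named members to the 3 genes were tested this way, and 69 had an unadjusted p under 0.05. By rho Mrps5 was closer (0.897). Without the 2 libraries farthest from the median of mt-Co1, Mrps2 had r = 0.929. Mrpl12, the stalk protein, had a slope of 0.42 ± 0.0101 and r = 0.878. The shallowest called slopes were those of Mrpl52 (0.0288 ± 0.00964, adjusted p = 0.004) and Mrpl54 (0.0401 ± 0.00981, adjusted p = 7.66e-05).

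Over members, r with mt-Co1 had a median of 0.794 and exceeded 0.8 in 34 (43.6%), against 2.88% of all genes tested. The large and small subunit had almost the same medians, 0.793 and 0.795. Within the libraries with Y counts the median was 0.456, and 71 members rose and 1 fell (Mrpl52), where 27.2% of genes rose and 31.9% fell. In those libraries mt-Co1 spanned 9050 to 40100 CPM. Within those without Y counts the median was 0.766, and 75 rose and 1 fell (Mrps6), where 33% rose and 41% fell, over a span of 10200 to 101000 CPM.

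The calls depend in part on scaling. The TMM factor itself correlated with mt-Co1 (r = -0.842) and with the mean z-score of the members (r = -0.836). With total counts and no factor, the median slope of all genes moved from -0.0166 to -0.134, and 68 members rose and 8 fell with mt-Co1, where 15.5% of genes rose and 71.6% fell. The median member slope was then 0.111, still above that of all genes. The 8 that fell were Mrpl27, Mrpl33, Mrpl40, Mrpl52, Mrpl54, Mrpl57, Mrps25 and Mrps6, so the direction of these genes rests on the scaling (Mrps6 was not called with TMM).

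Ucp1, the uncoupling protein of brown and beige adipocytes, ran from 0.0573 over a median of 12.6 to 4510 CPM. With Ucp1, 77 members rose and 0 fell, where 35.4% of genes rose and 43.2% fell. The median slope was 0.220 per SD of Ucp1 and the median r 0.696. Mrps36 (0.57 ± 0.0189, adjusted p = 1.07e-109), Mrps2 (0.50 ± 0.0136, adjusted p = 3.18e-138) and Mrpl47 (0.46 ± 0.0146, adjusted p = 4.76e-115) were again the steepest. Mrpl23 alone was not called (adjusted p = 0.190).

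The correlation with Ucp1 was lower in the libraries with Y counts, and the difference between the sets was not tested. In the libraries with Y counts Ucp1 reached at most 85.7 CPM, the median r over members was 0.166, and 40 members rose and 0 fell, where 10.6% of genes rose and 8.49% fell. In the libraries without Y counts Ucp1 reached 4510 CPM, the median r was 0.662, and 75 rose and 1 fell (Mrps6), where 30.1% rose and 39.7% fell. Mrps2 had r = 0.850 over all libraries, 0.363 with Y counts and 0.798 without. With total counts and no factor, 67 members rose and 6 fell, where 15.6% of genes rose and 68.7% fell.

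Adgre1, which encodes the macrophage surface protein F4/80, ran from 10.7 over a median of 47.5 to 656.5 CPM. With Adgre1, 75 members fell and 0 rose, where 43% of genes fell and 34.4% rose. The median slope was -0.169 and the median r -0.546. The steepest declines were those of Mrps36 (-0.42 ± 0.0266, adjusted p = 8.61e-44), Mrps2 (-0.35 ± 0.021, adjusted p = 2.77e-48) and Mrps35 (-0.35 ± 0.0161, adjusted p = 1.09e-70). Mrpl23, Mrpl52 and Mrps6 were not called (adjusted p = 0.762, 0.265 and 0.919).

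Adgre1 reached a similar maximum in both sets, 565.7 CPM with Y counts and 656.5 CPM without. Within the libraries with Y counts 59 members fell and 2 rose (Mrpl19 and Mrpl52), where 43.7% of genes fell and 29.7% rose, with a median r of -0.30. Within those without Y counts 75 fell and 1 rose (Mrps6), where 31.9% fell and 31.7% rose, with a median r of -0.525. Mrpl19 had r = 0.293 in the first set and -0.527 in the second. With total counts and no factor, 65 members fell and 8 rose, where 19.3% of genes fell and 61.9% rose. In bulk tissue, fewer cells of a type and less RNA per cell cannot be told apart.

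**Figure D3:**
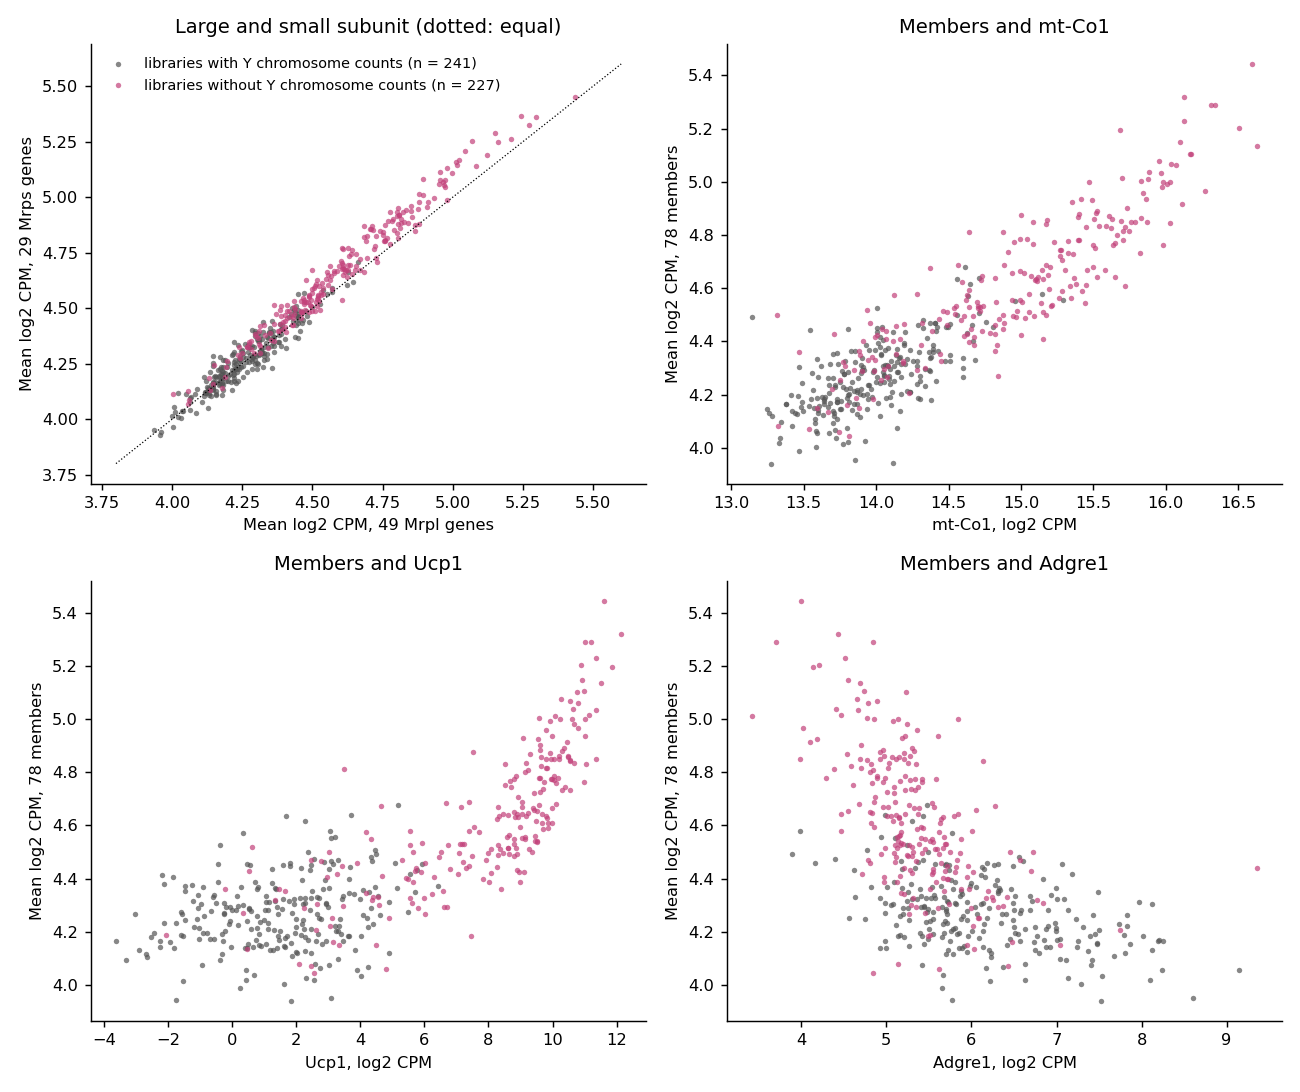
Mean log2 CPM of the 29 Mrps genes against that of the 49 Mrpl genes, and mean log2 CPM of all 78 members against log2 CPM of mt-Co1, Ucp1 and Adgre1, 1 point per library, coloured by whether Y chromosome counts were present. The subunit means follow the line of equality (r = 0.986), and the members rise with Ucp1 mainly at its higher levels.

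The 3 genes were themselves related, with r = 0.827 between mt-Co1 and Ucp1, -0.627 between mt-Co1 and Adgre1 and -0.445 between Ucp1 and Adgre1. They were therefore also fitted together. With the other genes held in the model, 73 members rose with mt-Co1 and 0 fell (27.3% and 35.6% of all genes), with a median slope of 0.184. Ucp1 then kept 50 rising members and 0 falling (20.9% and 23.6% of all genes), with a median slope of 0.0398. For Adgre1 44 members (56.4%) fell and 5 (6.41%) rose, against 42.2% and 26.6% of all genes, with a median slope of -0.0294. Over all genes the median slopes in this fit were -0.0242 with mt-Co1, -0.00301 with Ucp1 and -0.0242 with Adgre1. For Adgre1 the members' median was thus close to that of all genes. The 5 members that rose with Adgre1 were Mrpl19, Mrps18b, Mrps22, Mrps23 and Mrps33.

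**Figure D4:**
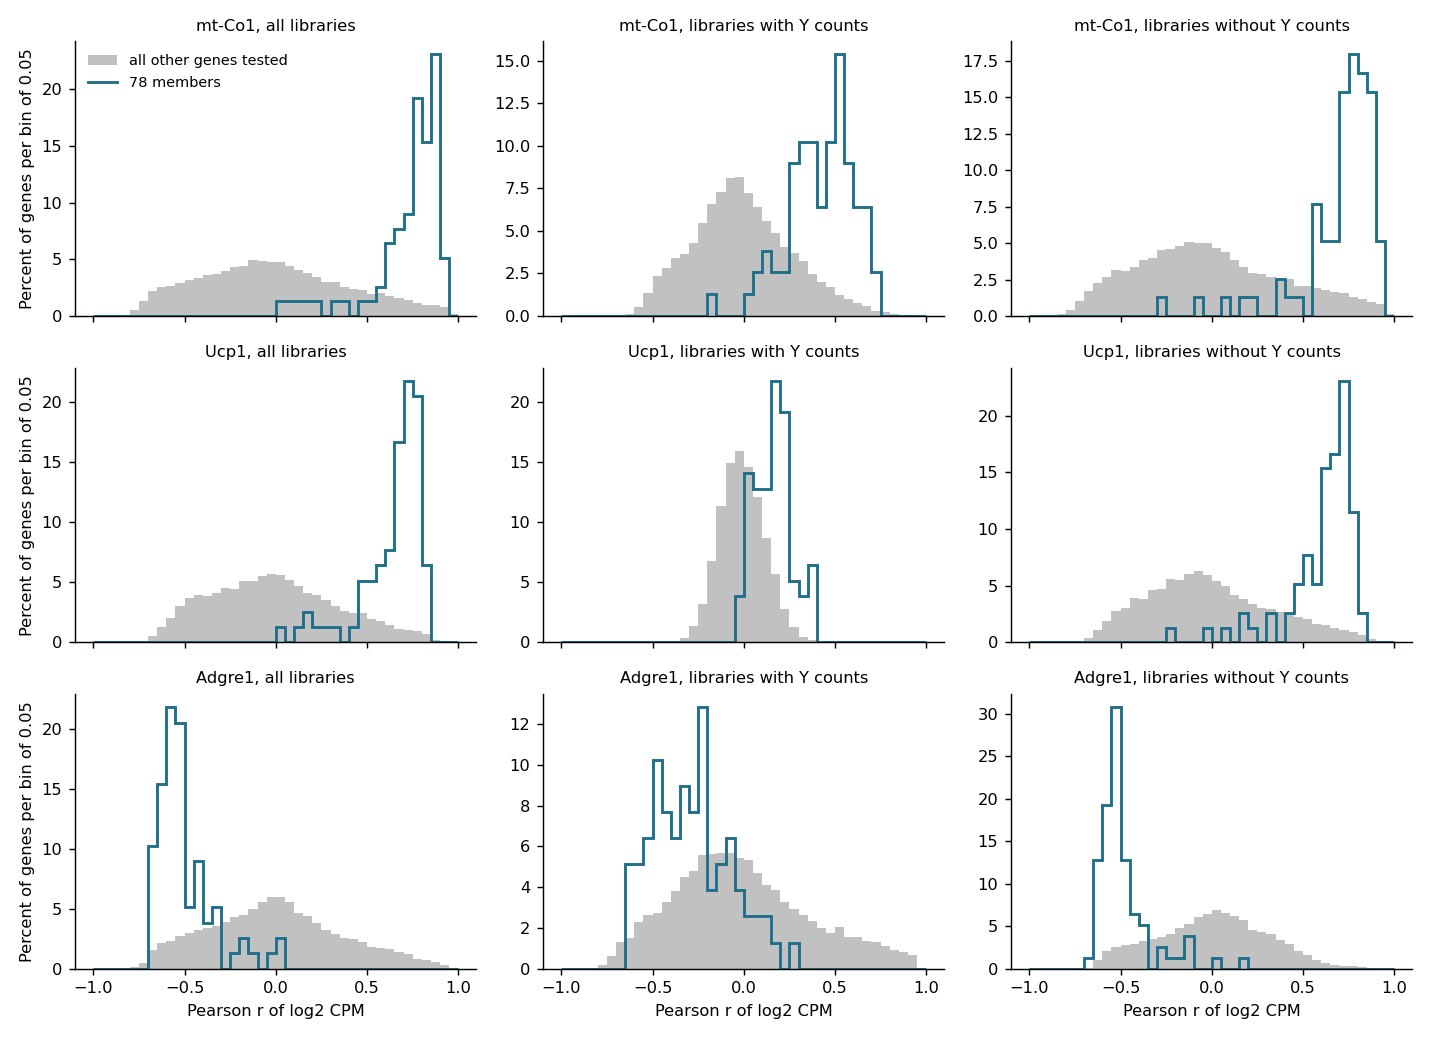
Percent of genes per bin of Pearson's r with mt-Co1, Ucp1 and Adgre1 (rows) over all libraries, those with and those without Y chromosome counts (columns). The blue line is for the 78 members, and grey is for all genes tested except the gene of the row, with the members included. The members' medians over all libraries are 0.794, 0.696 and -0.546, and for Ucp1 the members shift toward 0 in the libraries with Y counts.

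Marker transcripts of cell types moved with the members. The summed level of the brown adipocyte list ran from 17.8 to 6660 CPM, and log2 of the sum + 0.1 correlated with the mean z-score of the members with r = 0.861. That list holds Ucp1, which gave 4510 of the 6660 CPM in mouse DO330, and the macrophage list holds Adgre1. Both lists therefore partly repeat the relations to Ucp1 and Adgre1 given above. The macrophage list (282.6 to 4890 CPM) had r = -0.674, the B cell list -0.401, the pancreas list, with 1 tested gene, -0.391 and the adipocyte list 0.386. All 8 brown adipocyte markers rose with mt-Co1, where 37.1% of all genes rose and 45% fell. All 8 macrophage, 6 T cell and 5 B cell markers and the 1 tested pancreas marker fell. The brown adipocyte markers had a median r with mt-Co1 of 0.258 in the libraries with Y counts and 0.882 in those without. For the macrophage markers it was -0.448 and -0.675. The summed T cell (-0.143), endothelial (-0.147), adipocyte progenitor (-0.236), mesothelium (-0.0166), skeletal muscle (-0.132) and liver (0.169) lists were less related to the mean z-score of the members. No tested marker had a median of 0. The part of these cell types in the result was not tested.

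The extreme libraries of the members differed in the 3 genes and in Y counts. The highest mean z-score, 2.99, belonged to mouse DO237, with 98900 CPM of mt-Co1, 3130 CPM of Ucp1 and 15.9 CPM of Adgre1. The lowest, -1.59, belonged to mouse DO405, with 17800 CPM of mt-Co1, 0.275 CPM of Ucp1 and 54.6 CPM of Adgre1. For mt-Co1 and Adgre1, DO405 lay near the medians over all libraries, 19900 and 47.5 CPM. Y counts were present in DO405 and absent from DO237, so the pair also contrasts the Y sets. The mean log2 CPM of all members was 5.44 in DO237 and 3.95 in DO405. Their totals were 68.3 M and 50.3 M counts, and over all libraries the members' mean z-score had r = 0.0335 with the log10 total.

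Over all libraries the other genes of mitochondrial translation took the same direction, by lists that were chosen with earlier results of these data known. Of the remaining mitochondrial ribosome genes, which carry other names, all 5 rose with mt-Co1 (37.1% of all genes) and fell with Adgre1 (43%). Ptcd3, a small subunit protein of the pentatricopeptide type, had the steepest slope with mt-Co1, 0.44 ± 0.00685 (adjusted p = 1.27e-231), and Chchd1 the shallowest, 0.15 ± 0.00783. All 26 assembly factors rose with mt-Co1 (median slope 0.179), from Mpv17l2 (0.05 ± 0.013) to Mrm3, a methyltransferase for the large ribosomal RNA (0.36 ± 0.00994). Their median r with mt-Co1 was 0.361 in the libraries with Y counts and 0.638 in those without. Mrm1 changed direction between these sets, with r = -0.41 with Y counts and 0.528 without.

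All 16 translation factors rose with mt-Co1 over all libraries (median slope 0.255), where 37.1% of all genes rose. Their median r was 0.504 in the libraries with Y counts and 0.811 in those without. Mss51 had r = -0.14 with Y counts and 0.246 without. Tufm, the elongation factor Tu, was at 0.52 ± 0.009 and Mtfmt, which formylates the initiator tRNA, at 0.07 ± 0.00765. All 20 genes for charging mitochondrial tRNAs rose over all libraries (median slope 0.260), led by the alanyl-tRNA synthetase Aars2 (0.40 ± 0.00966). Their median r with mt-Co1 was 0.487 with Y counts and 0.739 without. Lars2, at 2640 ± 6420 CPM, had r = -0.2 with Y counts and 0.3 without. All 11 genes for copying and transcribing mitochondrial DNA rose (median slope 0.172), from Polg2 (0.06 ± 0.0108) to Tfb2m, a transcription factor of mitochondria (0.41 ± 0.0108). Their median r was 0.342 with Y counts and 0.606 without. The ribosomal RNAs mt-Rnr1 and mt-Rnr2 had slopes of 0.95 ± 0.0324 and 1.00 ± 0.0278, in libraries made from polyadenylated RNA.

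The nuclear genes for oxidative phosphorylation had steeper slopes than the members. All 48 rose with mt-Co1, where 37.1% of all genes rose. Their median slope was 0.527 against 0.237 for the members. Uqcrc2, a core protein of complex III, had 0.73 ± 0.00919, and Ndufa2, at the low end of its list, 0.28 ± 0.00887. The 5 genes outside the members with the highest r to their mean z-score were Atp5o (0.971), Uqcrq (0.968), Uqcr10 (0.961), Cox6b1 (0.961) and Txn2 (0.958). The first 4 encode subunits of ATP synthase, complex III and cytochrome oxidase, and Txn2 is the mitochondrial thioredoxin. Over all 18380 tested genes these values are the maximum of a search and are a description only.

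Of 76 cytosolic ribosomal protein genes, 5 rose with mt-Co1 and 38 fell, with a median slope of -0.0301, where 37.1% of all genes rose and 45% fell. With Ucp1, 11 rose and 13 fell, where 35.4% of all genes rose and 43.2% fell. The counts were the same with Adgre1, where 34.4% of all genes rose and 43% fell. Their median r with the members' mean z-score was -0.0182.

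Among 9 regulators of mitochondrial biogenesis, 5 rose with mt-Co1 and 1 fell, where 37.1% of all genes rose and 45% fell. The coactivators Ppargc1b (1.32 ± 0.0265, adjusted p = 1.37e-187) and Ppargc1a (1.08 ± 0.0274, adjusted p = 2.06e-148) had the steepest slopes, followed by the nuclear receptor Esrra (0.46 ± 0.013) and the ETS factor Gabpa (0.20 ± 0.00668). In the libraries with Y counts their r with mt-Co1 was 0.411, 0.591, 0.257 and 0.287, in this order. In the libraries without Y counts it was 0.921, 0.875, 0.886 and 0.792. Pprc1, a relative of the coactivators, fell (-0.14 ± 0.0104, adjusted p = 7.49e-33). Yy1, whose core letters stand in 12 of the member promoters, rose slightly (0.04 ± 0.00624), with r = 0.306 with mt-Co1 and 0.205 with the members. Nrf1, whose core letters stand in 8 of the member promoters, had r = 0.00281 with mt-Co1 and -0.0193 with the members, and was not called (adjusted p = 0.981). Gabpb1 (adjusted p = 0.385) and Myc (adjusted p = 0.264) were not called either. How these RNA levels relate to the promoter letters was not tested.

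Mouse and library numbers, the only other values in the labels, were tested as well. With mouse number, per 100, 1 member rose (Mrpl54, 0.0181 ± 0.0065, adjusted p = 0.03) and 2 fell (Mrps30, adjusted p = 0.0304, and Mrps5, adjusted p = 0.05 as rounded), where 11.3% of genes rose and 12% fell. With Xist and Y chromosome genes in the model, 17 members rose and 0 fell, where 4.52% of genes rose and 8.11% fell, so this count rests on that choice. With library number 0 members rose and 0 fell by edgeR, where 0.169% of genes rose and 0.141% fell. At an unadjusted p under 0.05, edgeR gave 36 members that fell and 0 that rose, where 5.5% of all genes fell and 2.93% rose. The members that fell at this unadjusted threshold numbered 16 by limma on log2 CPM, 14 by limma on the deposited VST values, 15 without the libraries lowest in total count and 47 with Xist and Y chromosome genes in the model. Both limma fits called 0 after adjustment.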

How the data were processed

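Adipose RNA of 1 library per mouse was sequenced as polyadenylated RNA with an added spike-in. The authors pooled both reads of each pair and aligned them singly to the transcriptomes of the founder strains. They deposited expected counts per gene, estimated by expectation maximization with EMASE/GBRS, so reads that match several genes are divided between them. The submitters' processing notes name GRCm38 and DESeq2. The authors also deposited variance-stabilized values on a log2 scale (VST), used here as an alternative.

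Expected counts were rounded, and genes with at least 10 counts in at least 50% of libraries were kept. Counts were scaled by TMM (edgeR 4.0.16, R 4.3.3; factors 0.578 to 1.36), and log2 CPM was computed with a prior count of 2. Slopes per SD of log2 CPM of mt-Co1, Ucp1 or Adgre1, or per 100 of mouse or library number, came from the edgeR quasi-likelihood test over all genes, with Benjamini-Hochberg adjusted p-values and a threshold of 0.05. SE is the slope over the square root of F. Permutation tests used 100000 resamples (scipy 1.17.1). Alternatives used limma 3.58.1 and DESeq2 1.42.0. The fits were tested on simulated data.

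Members were named by extremes of level per kb, SD, correlation and slope, and by known role. Members named as exceptions to a count fell outside this and were chosen after their values were seen. The members and gene lists were chosen with earlier results of these data known. Positions are GRCm38, as deposited.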

Additional observations from a re-analysis of the deposited data

How the results depend on the processing

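No paired analysis was possible because all libraries form 1 group, and leaving out single mice was not run. Of the values and counts that answer a comparison, 140 kept within their limits under the alternatives and 28 moved. For single members, 1054 values kept their call, 46 lost it, 8 gained it and 17 reversed. The cause was not tested for any of these.

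With total counts and no scaling factor, chosen after seeing the data, 8 members fell with mt-Co1, 6 fell with Ucp1 and 8 rose with Adgre1. The median correlation was then 0.444 between members, 0.527 with mt-Co1 and -0.366 with Adgre1. Mrpl33 and Mrpl57, which the naming rule did not choose, also changed direction with mt-Co1 and Adgre1, and Mrpl57 with Ucp1. Among the members chosen by the rule, slopes with mt-Co1 reversed for Mrpl27 (-0.0553), Mrpl40 (-0.0732), Mrpl52 (-0.0896), Mrpl54 (-0.0886) and Mrps25 (-0.0258). Those with Ucp1 reversed for Mrpl27 (-0.0399), Mrpl40 (-0.0612), Mrpl52 (-0.0446), Mrpl54 (-0.0589) and Mrps6 (-0.0474), and those with Adgre1 for Mrpl27 (0.0503), Mrpl40 (0.0571), Mrpl54 (0.0539) and Mrps25 (0.0235).

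Within the libraries with Y counts, also chosen after seeing the data, 1 member fell with mt-Co1 (Mrpl52, -0.0367), 40 rose with Ucp1 and 2 rose with Adgre1, with median correlations of 0.456, 0.166 and -0.30. Within those without, 1 fell with mt-Co1, 1 fell with Ucp1 (Mrps6, -0.08) and 1 rose with Adgre1. Without the libraries highest in muscle or liver markers the counts stayed within 1.5 times.

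With the other genes in the model, 50 members rose with Ucp1, and 44 fell and 5 rose with Adgre1 (Mrps18b, 0.0351). With Xist and Y chromosome genes in the model, 1 member fell with mt-Co1, 1 rose with Adgre1, 17 rose and 0 fell with mouse number and 2 fell with library number. As residuals, the median correlation with Ucp1 was 0.495. With no filter on low counts 1 member fell with mouse number and 1 with library number, and without the libraries lowest in total count 1 fell with mouse number. Over members of at least 10 CPM the large minus small difference was 0.115 in place of -0.04.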
